A study of Mus musculus with 34 samples.

Results

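The genes of the integrated stress response that are led by the transcription factor ATF4 were followed in the left ventricle (LV) of CFW mice, an outbred strain, after myocardial infarction (MI). The 10 members, Atf4, Atf5, Ddit3, Trib3, Asns, Chac1, Gdf15, Sesn2, Ppp1r15a and Ddit4, were chosen by name as known genes of this response. All 10 were listed in both deposited RNA sequencing tables, out of 14552 genes in a table of 10 uninjected hearts and 17406 genes in a table of 24 libraries that holds the injected hearts. All 10 had a mean of at least 1 CPM (read counts scaled to make libraries comparable) in both tables, so no member was left out of a test. The scaled libraries did not share a common total. In the table of 24 libraries, the values of the listed genes summed to 508204 to 818456 CPM per library.

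MI came from tying off the left anterior descending (LAD) coronary artery for good. The first table holds 3 sham hearts, 3 hearts 4 h post-MI and 4 hearts 24 h post-MI, none injected, taken from the ischemic area or its equivalent in sham hearts. Its sham libraries are titled as sham while their stress label says that no operation was done, and the study's methods describe them as sham-operated. The second table holds 2 uninjected sham-operated hearts labelled 4 h, and hearts that received synthetic modified mRNA (modRNA) in the border zone directly after ligation, either Luc (luciferase, the control) or AC. These were collected at 4 h (4 Luc, 4 AC), 24 h (3 Luc, 3 AC) and 48 h (4 Luc, 4 AC). The second table has no infarcted heart without an injection and no injected heart without an infarct, so infarction and injection cannot be told apart in a comparison with its sham hearts. Its shams carry the 4 h label, and its 3 times come as separately titled library sets, so time and library set cannot be told apart. The titles of its 24 h libraries carry the letters Br, which the labels do not expand. The labels give neither age nor sex of the mice, and do not say whether the replicates of the second table came from separate litters or days, so p-values measure only the spread between these samples.

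The labels do not expand AC. In AC hearts, Asah1, the gene for the sphingolipid enzyme acid ceramidase, stood at 5296 to 13703 CPM at 4 h, 104 to 305 CPM at 24 h and 42.5 to 112 CPM at 48 h, against 21.4 to 28.2 CPM in the 11 Luc libraries and 25.1 to 32.9 CPM in the sham libraries. Each AC library lay above every Luc and sham library. Asah1 was singled out after its values were seen, because no other gene passed the test between AC and Luc hearts at 4 h or 24 h.

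In the integrated stress response, kinases that sense unfolded protein, amino acid shortage, heme shortage or double-stranded RNA phosphorylate the translation initiation factor eIF2alpha. General protein synthesis then falls, while ATF4 is translated more because of short upstream reading frames in the leader of its mRNA, and ATF4 in turn switches on genes for amino acid supply, redox balance and cell fate. In heart muscle the response is known to follow stress of mitochondria and of the endoplasmic reticulum. The libraries measure mRNA only, so they show the level of Atf4 mRNA and of ATF4 target genes, not of ATF4 protein.

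ATF4 binds as a dimer with C/EBP proteins to a composite element whose core reads TGATGNAA. This core was searched for on both strands in RefSeq promoter windows of build GRCm38.p6, each running from 250 bases before to 50 bases after a start site. All 10 members had a window (12 windows, since Atf5 and Gdf15 have 2 each), and 3 members held the core, against 4.51% of the 27025 genes with a window. The 3 stretches are shown to place these letters on the members that carry them, and whether ATF4 binds there was not tested. Each is given 5′ to 3′ on the gene's strand with the core in capitals.
Asns, chr6:7693214-7693243, minus strand: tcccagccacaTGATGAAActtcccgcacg
Chac1, chr2:119351038-119351067, plus strand: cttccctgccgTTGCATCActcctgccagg
Trib3, chr2:152344028-152344057, minus strand: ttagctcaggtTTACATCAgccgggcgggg
In Asns the RefSeq start site lies 27 bases upstream of the start in the deposited coordinates given below. The core began 23 bases before the RefSeq start site of Asns, on the gene's strand. In Chac1 it began 193 bases before the start site and in Trib3 15 bases into the transcribed sequence, in both on the opposite strand. The other members had no match in these windows, which says only that these letters are not in them.

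The leaders of the members' mRNAs were read from the principal transcript of each gene in GENCODE M21. Of the 10 members, 7 carried at least 1 upstream ATG, against 49.5% of 15716 genes with a principal transcript and a 5′ leader. Atf4 had 3 in a leader of 594 bases, of which 2 open frames that close before the coding sequence and 1 opens a frame that runs into the coding sequence out of frame. Atf5 had the same arrangement with 2, of which 1 overlapped its coding sequence out of frame, a feature of 16.4% of all genes and of only these 2 members. Gdf15 had 4, Ppp1r15a 3, Ddit3 and Asns 2 each and Sesn2 1, all closed before the coding sequence, and Trib3, Chac1 and Ddit4 had none. ATG counts depend on leader length, which ran from 169 bases in Asns to 594 bases in Atf4.

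In the first table, the reads counted in the listed genes, estimated from the value of a single read, were 12553519 to 18952669 per library. Reads outside the listed genes are not in this estimate, so the full depth was higher. The lowest value of a member, 0.585 CPM for Gdf15 in a sham heart, corresponded to about 18 reads. The depth of the second table is unknown, because its lowest values are fractions of reads. Summed markers of cell types moved with the groups. In the first table, 6 of 6 cardiomyocyte markers summed to 39108 to 42073 CPM in sham, 37529 to 39302 CPM at 4 h and 14891 to 27459 CPM at 24 h. The 5 neutrophil markers summed to 1.25 to 1.74 CPM in sham, 7.14 to 29.9 CPM at 4 h and 283 to 1808 CPM at 24 h, and the 5 monocyte and macrophage markers summed to 90.5 to 155 CPM in sham and 217 to 410.2 CPM at 24 h. In the second table the cardiomyocyte sum was 36643 to 42321 CPM in sham, 42613 to 58979 CPM at 24 h and 21456 to 36063 CPM at 48 h, and 2 of 6 cardiomyocyte markers were lower at Luc 48 h than in sham. The neutrophil sum was 2.63 to 20.1 CPM in sham, 70.4 to 154 CPM at Luc 4 h, 43.0 to 83.5 CPM at Luc 24 h and 110.2 to 401 CPM at Luc 48 h, with 3, 5 and 5 of 5 markers higher than in sham. Atrial markers (Sln, Myl7, Myl4) summed to at most 3.02 CPM in sham and 4 h libraries of the second table and to 4.35 to 353 CPM at 24 and 48 h, and erythroid markers to at most 631 CPM in sham and 1703 to 10672 CPM in the injected hearts at 4 h. In the first table the erythroid sum was 157 to 241 CPM in sham and 427 to 736 CPM at MI 4 h, where 4 of 4 markers were higher. In the first table Myl7 was not listed and the other 2 atrial markers summed to at most 3.01 CPM. Fewer cells of a type and less RNA per cell cannot be told apart in bulk tissue, and the part of these shifts in the results below was not tested.

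The first comparison asked what happens to the pathway in the hours after ischemia without any injection. At 24 h post-MI all 10 members were higher than in sham hearts by limma at an adjusted p under 0.05, where 35.6% of all 12487 tested genes were higher and 30.3% were lower. The members' median change was 2.35 on the log2(CPM + 1) scale, from 0.68 for Atf5 to 3.29 for Gdf15, while the median of all tested genes was 0.04. At 4 h post-MI only 2 of the 10, Ppp1r15a and Ddit4, were higher, against 1.55% of all genes, and no member was lower. Between 4 h and 24 h, 9 of 10 rose, all but Ddit4, against 37.2% of all genes.

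**Figure D1:**
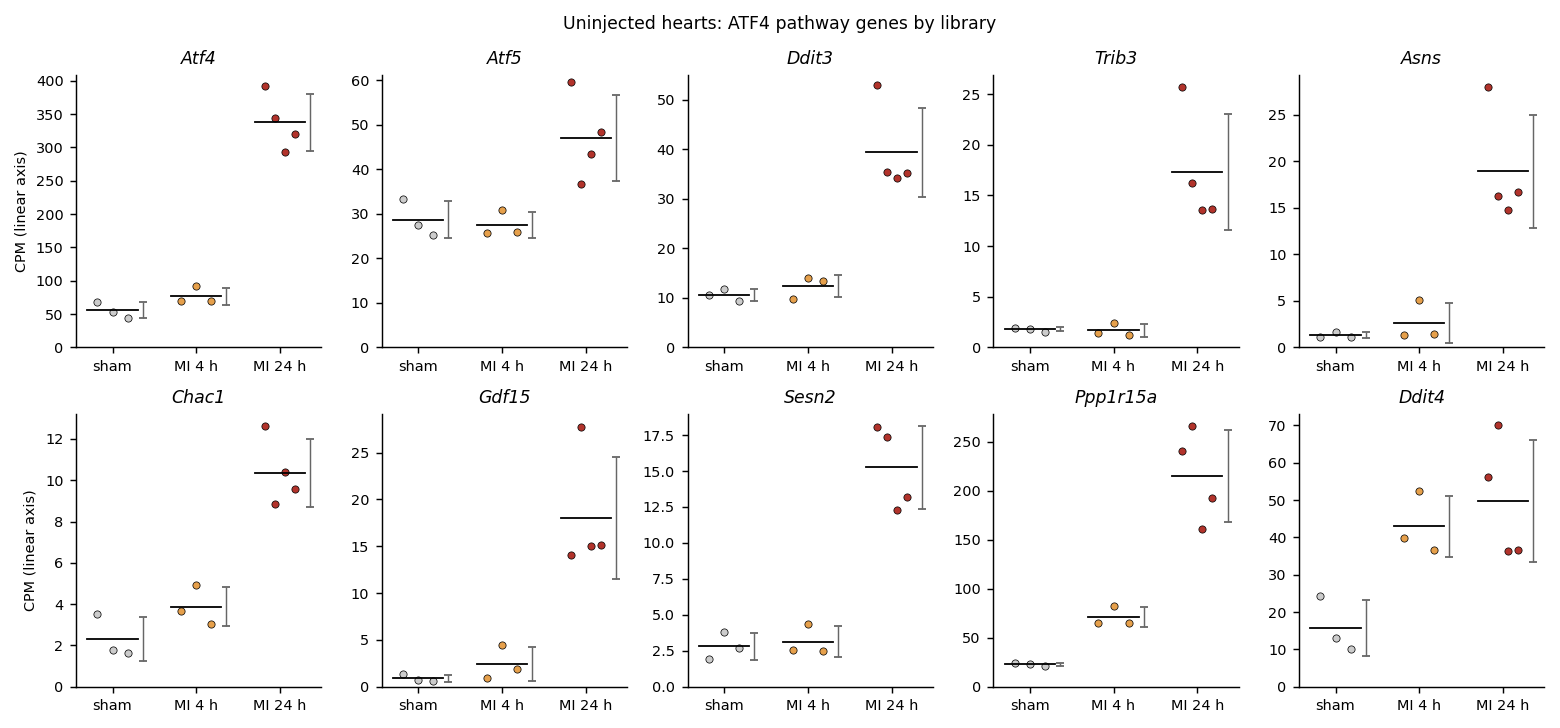
CPM of each of the 10 genes in every uninjected library, on linear axes that start at 0. Points are libraries of sham (n = 3), MI 4 h (n = 3) and MI 24 h (n = 4) hearts, black bars the means and grey bars ± SD. Every 24 h library lies above every sham library for all 10 genes, whereas at 4 h this holds for Atf4, Ppp1r15a and Ddit4.

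Atf4, on chr15:80255184-80257545 of mm10, encodes the factor at the head of the pathway. It was measured at 68.5, 53.9 and 44.7 CPM in the sham hearts, at 69.3, 91.8 and 69.5 CPM at 4 h and at 392, 345, 293 and 320.5 CPM at 24 h. The 4 h hearts lay just above the sham hearts, and the 24 h hearts stood apart from both. The change against sham was 2.59 ± 0.16 (SE) on the log2 scale at 24 h, a 6.06-fold higher mean (adjusted p = 3.4e-07), and 0.47 ± 0.17 at 4 h, which did not pass the adjustment (adjusted p = 0.21).

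Atf5 and Ddit3 encode further transcription factors of the response. Atf5, a close relative of ATF4 with the same kind of leader, had the smallest change of the 10, from 25.4 to 33.3 CPM in sham hearts to 36.6 to 59.6 CPM at 24 h (log2 change 0.68 ± 0.16, adjusted p = 0.0025). Atf5 did not pass by limma when shared letters were fitted as a block (0.57, adjusted p = 0.056). Its gene (chr7:44812256-44816658) overlaps Nup62 on the opposite strand, and Ddit3 (chr10:127290793-127296288) overlaps Mars. The labels name a stranded kit, but whether counting used the strand is not given in the sources used here, so reads of these pairs may be shared. Ddit3 encodes CHOP, the factor that links the response to apoptosis. It stood at 10.6, 11.8 and 9.33 CPM in sham, 9.76, 14.0 and 13.4 CPM at 4 h, and 52.9, 35.4, 34.2 and 35.2 CPM at 24 h. The 4 h hearts overlapped sham and the 24 h hearts did not, with heart C the highest. The log2 change at 24 h was 1.79 ± 0.17 (adjusted p = 4.9e-06).

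Trib3, on chr2:152337425-152344060, encodes a pseudokinase that is induced by ATF4 and CHOP and restrains them. Its level was 1.95, 1.86 and 1.56 CPM in sham, 1.39, 2.39 and 1.28 CPM at 4 h and 25.7, 16.3, 13.6 and 13.7 CPM at 24 h. Sham and 4 h hearts overlapped (log2 difference -0.07, interval -0.58 to 0.43), and the 24 h hearts stood apart. Trib3 rose by 2.75 ± 0.22 on the log2 scale between 4 h and 24 h (adjusted p = 2.2e-06), the widest step of the 10 between these times.

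Asns, asparagine synthetase (chr6:7675171-7693182), and Chac1, which degrades glutathione (chr2:119351242-119354327), are metabolic targets. Asns was at 1.16, 1.65 and 1.10 CPM in sham hearts, at 1.35, 5.12 and 1.39 CPM at 4 h and at 27.9, 16.3, 14.7 and 16.7 CPM at 24 h, 14.5-fold above sham (log2 change 3.07 ± 0.32, adjusted p = 9.2e-06). Heart D at 4 h was above the other 4 h hearts, and heart C at 24 h above the other 24 h hearts. Chac1 was 4.48-fold higher at 24 h, at 8.85 to 12.6 CPM against 1.62 to 3.54 CPM (adjusted p = 1.8e-05). At 4 h its log2 change was 0.59 ± 0.22, with overlapping groups and an adjusted p of 0.22.

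Gdf15, a secreted stress hormone (chr8:70629393-70632456), had the largest change of the 10 against sham. Its level was 1.34, 0.766 and 0.585 CPM in sham hearts, 0.940, 4.45 and 1.86 CPM at 4 h and 14.1, 27.8, 15.0 and 15.1 CPM at 24 h. The 24 h mean was 20.1-fold above sham (log2 change 3.29 ± 0.33, adjusted p = 6.6e-06), and heart D was the highest at both 4 h and 24 h. The letters label different hearts, and whether a shared letter links hearts by day or litter is not known. At 4 h the groups overlapped and the change of 0.74 ± 0.35 did not pass (adjusted p = 0.33).

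Sesn2 and Ddit4 encode inhibitors of the growth kinase mTORC1. Sesn2 (chr4:132492807-132510456) was at 1.95 to 3.83 CPM in sham, 2.48 to 4.36 CPM at 4 h and 12.3 to 18.1 CPM at 24 h, with a log2 change of 2.10 ± 0.21 at 24 h (adjusted p = 7.5e-06). Ddit4 (chr10:59949675-59951770), which also responds to hypoxia and to glucocorticoids, was at 24.2, 12.9 and 10.1 CPM in sham, 39.7, 52.3 and 36.7 CPM at 4 h, and 56.1, 70.0, 36.5 and 36.5 CPM at 24 h. It was above every sham heart at both times, and its 4 h and 24 h groups overlapped (log2 difference 0.17 ± 0.29, interval -0.47 to 0.81). Its call at 4 h (log2 change 1.46 ± 0.31, adjusted p = 0.034) was lost when any of the MI 4 h hearts C, D or E or the sham hearts H or I was left out, with log2 changes of 1.21 to 1.57 and adjusted p of 0.067 to 0.16.

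Ppp1r15a (chr7:45522917-45526268) encodes GADD34, the phosphatase subunit that reverses eIF2alpha phosphorylation. It was at 24.0, 22.9 and 21.5 CPM in sham, 65.2, 82.7 and 64.6 CPM at 4 h and 241, 266, 161 and 192 CPM at 24 h. The 3 groups did not overlap, with a log2 change of 1.59 ± 0.17 at 4 h (adjusted p = 0.00053) and 3.16 ± 0.16 at 24 h (adjusted p = 1.2e-07). The step from 4 h to 24 h, 1.57 ± 0.16, passed as well. It was the only member whose 4 h call was kept when each library in turn was left out, and all 10 calls at 24 h were kept in those fits.

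**Figure D2:**
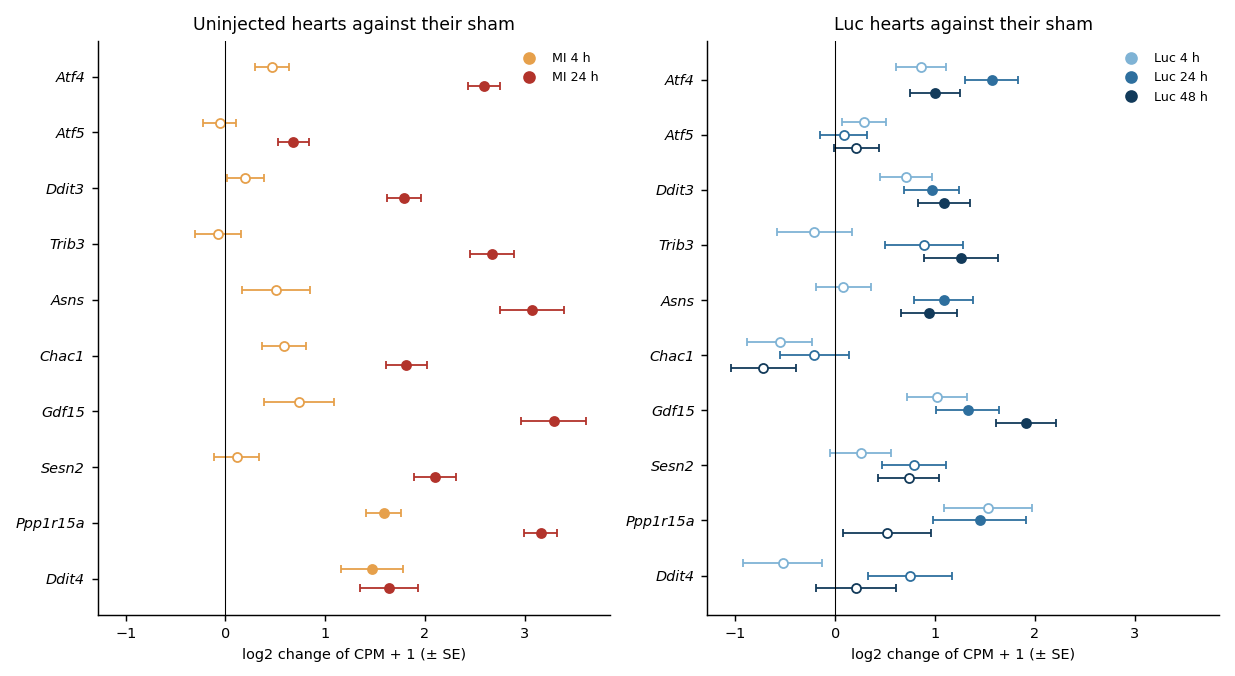
Change against sham on the log2(CPM + 1) scale for each gene, with bars of ± 1 SE. The left panel shows uninjected hearts at 4 and 24 h and the right panel Luc hearts at 4, 24 and 48 h, each against the sham of its own table, with filled points where the adjusted p was under 0.05. All 10 points at MI 24 h are filled, 2 at MI 4 h, none at Luc 4 h and 5 each at Luc 24 h and Luc 48 h.

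Genes around the members were taken from lists of known pathway genes. Among the kinases and partners of eIF2, none of 8 passed at 4 h, and at 24 h 6 were higher and 1 lower, with a median of 0.45 (5 higher and 1 lower under either rescaling of the libraries). Eif2s1, which encodes eIF2alpha itself (log2 change 1.07, adjusted p = 4.0e-05), and the phosphatase subunit Ppp1r15b (0.97, adjusted p = 7.0e-05) were the highest of them, and Oma1, the mitochondrial protease that signals to the kinase HRI, was lower (-1.13, adjusted p = 0.00024). Of 7 partners of ATF4 and other factors of the response, 2 were higher at 4 h and all 7 at 24 h (median 1.57). The 2 called at 4 h were Atf3 and Cebpd. Atf3, a factor that ATF4 induces, was at 2.50 to 6.07 CPM in sham, 185 to 249 CPM at 4 h and 139 to 253 CPM at 24 h. Its log2 change was 5.45 ± 0.26 at 4 h and 5.27 ± 0.25 at 24 h, and the difference between these times did not pass the test (adjusted p = 0.55). Cebpd was higher at both times as well (2.58 and 2.82).

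The metabolic arm came next. Of 10 tested genes for serine, glycine and one-carbon synthesis, none passed at 4 h and 8 were higher and 1 lower at 24 h (median 1.11), led by the mitochondrial folate enzymes Mthfd2 (3.45) and Mthfd1l (3.12), with Gpt2, alanine transaminase, lower (-1.56). This list also holds genes for proline (Pycr1, Aldh18a1) and alanine (Gpt2) synthesis. Cth was under the level tested. Of 8 amino acid transporters, none passed at 4 h and 5 were higher at 24 h (median 1.43), led by the cystine transporter Slc7a11 (3.67) and Slc7a5 (3.23). All 13 cytosolic aminoacyl-tRNA synthetases, which charge tRNAs with amino acids, were higher at 24 h and none passed at 4 h, with a median of 0.98 and changes from 0.34 for Lars to 1.55 for Cars. Of 11 other tested ATF4 targets 2 were higher at 4 h, and at 24 h 7 were higher, with Ero1l (3.15) and Eif4ebp1 (2.10) the highest, and 3 were lower, with Stc2 (-1.02) and Vldlr (-1.60) the lowest. Fgf21 was under the level tested.

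Lists of neighbouring responses were read beside these. In the ATF6 and XBP1 branch of the unfolded protein response none of 18 genes passed at 4 h and 15 were higher at 24 h (median 1.46), led by the chaperone partners Sdf2l1 (2.87) and Creld2 (2.36), and none was lower. Of 11 p53 targets 2 were higher at 4 h, and at 24 h 8 were higher, with Cdkn1a (4.03) and Btg2 (2.50) in front, and 2 lower, Sesn1 (-1.07) and Ccng1 (-1.69). Of 10 HIF targets 1 was higher at 4 h and 8 were higher at 24 h (median 1.44), led by the glucose transporter Slc2a1 (3.82) and Adm (3.31). Of 6 glucocorticoid targets 2 were higher at 4 h, and at 24 h 3 were higher and 1, Klf9 (-1.28), was lower. The median of p53 targets at 24 h was 1.05 and that of glucocorticoid targets 0.45, while the median of all tested genes was 0.04. With 35.6% of all genes higher at 24 h, higher genes were common outside this pathway too.

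**Figure D3:**
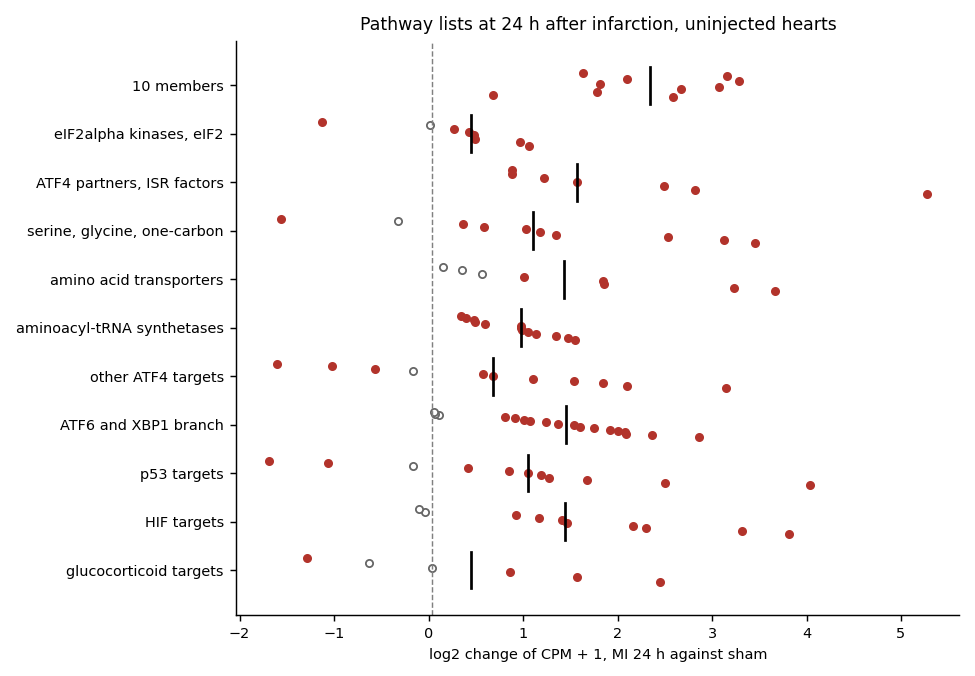
Change at MI 24 h against sham in uninjected hearts, on the log2(CPM + 1) scale, for the 10 members and for each gene of the 10 pathway lists. Red points passed the test, open points did not, black bars are list medians and the dashed line is the median of all tested genes (0.04). The members have a median of 2.35, and the list medians lie between 0.45 and 1.57.

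The second table allowed the same genes to be followed in hearts injected with Luc modRNA. The 2 tables were normalized separately and no test was made between them. At Luc 4 h no member passed the test against sham, at 24 h 5 of 10 were higher (Atf4, Ddit3, Asns, Gdf15 and Ppp1r15a), and at 48 h 5 of 10 were higher (Atf4, Ddit3, Trib3, Asns and Gdf15). Over all 12555 tested genes, 1.55% passed in either direction at 4 h, 25.3% were higher at 24 h and 13.7% were higher at 48 h. The members' median log2 change was 0.27 at 4 h, 0.93 at 24 h and 0.84 at 48 h, and that of all genes 0.02, 0.16 and -0.03. At 4 h, 4 members had an unadjusted p under 0.05 by limma (Atf4, Ddit3, Gdf15 and Ppp1r15a), against 1710 of the 12555 tested genes. When only the Luc 4 h and sham libraries were used, 3 of 9 fitted members passed. The share of all genes that passed in that fit is not given here, so this count has no background beside it. Leaving out 1 of the 2 sham hearts left 3 calls at 24 h whichever was removed, and at 48 h 3 calls were left without sham heart 2.

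**Figure D4:**
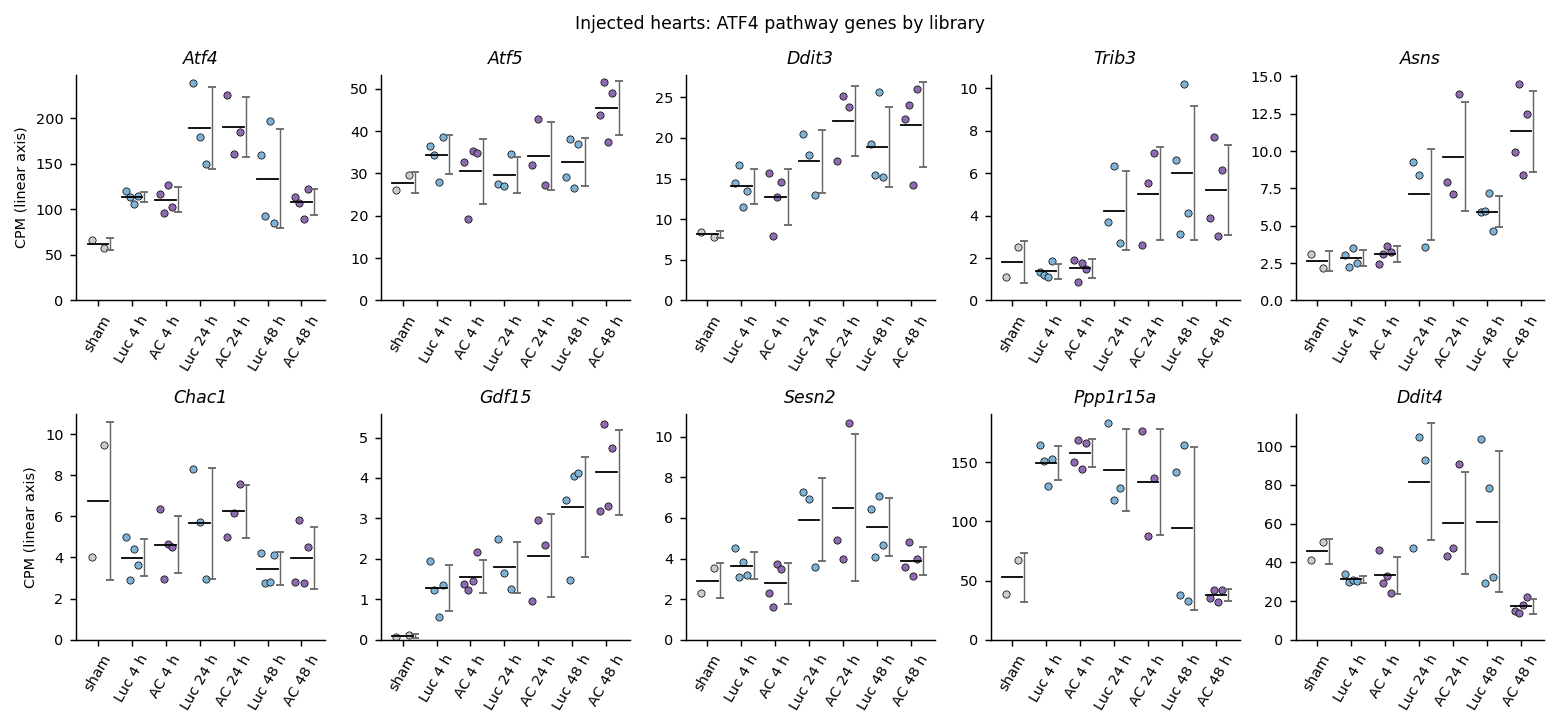
CPM of each of the 10 genes in every library of the second table, on linear axes that start at 0. Points are libraries of sham (n = 2), Luc and AC hearts at 4 h (n = 4 each), 24 h (n = 3 each) and 48 h (n = 4 each), black bars the means and grey bars ± SD. The Luc 48 h libraries form a high and a low pair in Atf4, Ppp1r15a and Ddit4. The same pair is also the higher one in Ddit3, Trib3 and Sesn2, and the lower one in Atf5.

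Atf4 stood at 66.8 and 57.6 CPM in the sham hearts of the second table. In Luc hearts it was at 119.8, 114, 106 and 115 CPM at 4 h, at 239, 179 and 150.1 CPM at 24 h and at 159, 92.8, 197 and 84.4 CPM at 48 h. All Luc libraries were above both sham libraries, the 24 h libraries lay above the 4 h libraries, and the 48 h libraries overlapped both. The log2 change against sham was 0.86 ± 0.25 at 4 h (adjusted p = 0.093), 1.57 ± 0.26 at 24 h (adjusted p = 0.00013) and 1.003 ± 0.25 at 48 h (adjusted p = 0.0046). The 48 h call was lost without sham heart 2 (0.90), with array weights (0.70) and when only the compared groups were fitted. AC hearts gave 117, 96.1, 127 and 102 CPM at 4 h, 226, 161 and 184 CPM at 24 h and 114, 107, 89.2 and 122 CPM at 48 h. In order of means, sham was lowest and its libraries overlapped no other group, AC 48 h, AC 4 h, Luc 4 h and Luc 48 h followed, then Luc 24 h and AC 24 h, and from AC 48 h on each group overlapped the next.

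Luc 48 h hearts 1 and 3 stood apart from hearts 2 and 4. Beside Atf4, Ppp1r15a was at 142 and 164 CPM in hearts 1 and 3 and at 37.8 and 32.5 CPM in hearts 2 and 4, and Ddit4 at 104 and 78.5 CPM against 29.4 and 32.3 CPM. Hearts 1 and 3 were also above hearts 2 and 4 in Ddit3 (19.3 and 25.7 against 15.4 and 15.2 CPM). The same held for Trib3 (6.64 and 10.2 against 3.13 and 4.12 CPM) and Sesn2 (6.46 and 7.06 against 4.09 and 4.65 CPM). In Atf5 hearts 1 and 3 were below (29.2 and 26.5 against 38.1 and 37.0 CPM). Asns, Chac1 and Gdf15 did not divide this way. The high pair lay within the range of the Luc 24 h hearts in Atf4, Ppp1r15a and Ddit4, and the low pair lay below that range. Some marker sums were also higher in hearts 1 and 3, without as clear a split. In hearts 1, 2, 3 and 4 neutrophil markers were at 401, 181, 188 and 110.2 CPM, cardiomyocyte markers at 36063, 27447, 28870 and 28268 CPM, and endothelial markers at 427, 259, 407 and 367 CPM, each higher in hearts 1 and 3. For neutrophil and cardiomyocyte markers heart 1 stood apart, and heart 3 was close to heart 2 or heart 4. Monocyte and macrophage markers were lower in hearts 1 and 3, at 174, 209, 134 and 185 CPM. Fibroblast markers, at 788, 673, 658 and 866 CPM, and smooth muscle markers, at 344, 131, 189 and 225 CPM, did not divide them. The part of these sums in the member values was not tested. Without hearts 1 and 3, a choice made after seeing the data, 2 of 10 members were higher at Luc 48 h than in sham, and Atf4 (log2 change 0.51), Trib3 (0.76) and Asns (0.81) no longer passed.

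Gdf15 was close to 0 in the second table's sham hearts, at 0.0652 and 0.127 CPM. It was at 1.96, 1.23, 0.575 and 1.36 CPM in Luc hearts at 4 h, at 2.48, 1.64 and 1.25 CPM at 24 h and at 3.47, 1.49, 4.05 and 4.12 CPM at 48 h. All Luc libraries were above both sham libraries, and the log2 changes on the CPM + 1 scale were 1.02 ± 0.30 at 4 h (adjusted p = 0.096), 1.33 ± 0.32 at 24 h (adjusted p = 0.0029) and 1.91 ± 0.30 at 48 h (adjusted p = 8.0e-05). No fold is given, because the sham values are too low to serve as a base. In the uninjected table Gdf15 reached 14.1 CPM or more in each 24 h heart. The tables were not tested against each other. Cardiomyocyte markers at 24 h summed to 14891 to 27459 CPM in the uninjected hearts and to 46975 to 58979 CPM in Luc hearts. The part of this in the Gdf15 values was not tested.

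Asns was at 3.10 and 2.16 CPM in sham, at 3.08, 2.25, 3.49 and 2.54 CPM at Luc 4 h, at 9.30, 8.40 and 3.60 CPM at Luc 24 h and at 5.91, 5.99, 7.20 and 4.67 CPM at Luc 48 h. Sham and 4 h libraries overlapped, and the 24 h and 48 h libraries lay above both. The Asns calls against sham at Luc 24 h and Luc 48 h were lost without sham heart 2 (log2 changes 0.90 and 0.75). The step from Luc 4 h to Luc 24 h was 1.005 ± 0.25 on the log2 scale (adjusted p = 0.0038). Between these times Atf4 (0.71 ± 0.22), Trib3 (1.09 ± 0.33) and Ddit4 (1.28 ± 0.35) rose as well, 4 of 10 members against 24.5% of all genes that were higher, and without Luc 24 h heart C only Atf4 and Asns passed. The Atf4 step was lost without Luc 24 h heart A (0.53) and under equal-total (0.49) and median-ratio scaling (0.54). Between Luc 24 h and 48 h only Atf4 was lower (-0.57 ± 0.22, adjusted p = 0.044), against 32.6% of all genes. That call was lost without any of 11 of the 24 libraries, among them Luc 24 h hearts A and C and Luc 48 h hearts 2 and 4, without which the log2 change was -0.39, -0.59, -0.42 and -0.38.

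Ppp1r15a and Ddit4, both called at MI 4 h in the first table, were read next. Ppp1r15a was at 38.3 and 67.6 CPM in sham, at 130 to 165 CPM at Luc 4 h and at 118 to 183 CPM at Luc 24 h. It was above both sham hearts in each of these libraries (log2 change 1.53 ± 0.44 at 4 h, adjusted p = 0.092, and 1.45 ± 0.47 at 24 h, adjusted p = 0.020), and its 24 h call was lost without Luc 24 h heart A (1.26) or sham heart 1 (1.05). Ddit4 stood at 41.2 and 50.3 CPM in sham and at 30.1 to 34.0 CPM in Luc hearts at 4 h, all below both sham hearts without passing the test (log2 change -0.53 ± 0.40, adjusted p = 0.58). At 24 h it was at 47.6, 104 and 92.9 CPM, with 1 heart within the sham range.

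The remaining members were read by their ranges. Ddit3 rose from 7.83 to 8.42 CPM in sham to 13.0 to 20.5 CPM at Luc 24 h and 15.2 to 25.7 CPM at Luc 48 h (log2 change 0.97 ± 0.27 and 1.09 ± 0.26), and its 24 h call was lost without either sham heart (1.01 and 0.92). Trib3 was at 1.11 to 2.51 CPM in sham and 3.13 to 10.2 CPM at Luc 48 h (1.26 ± 0.37, adjusted p = 0.013), a call lost without sham heart 1 (0.89). Sesn2 was at 2.31 to 3.52 CPM in sham and 3.57 to 7.26 CPM at Luc 24 h, above sham in every library without passing the adjustment (0.79 ± 0.32, adjusted p = 0.061). Atf5 and Chac1 passed in no comparison with sham in the second table. Atf5 was at 26.1 to 29.6 CPM in sham and 26.5 to 38.5 CPM over the Luc hearts, and Chac1 at 4.04 and 9.46 CPM in sham and 2.75 to 8.31 CPM over the Luc hearts, with a log2 change of -0.21 at 24 h (interval -0.92 to 0.50).

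The pathway lists were read in the Luc hearts as well. Of 13 aminoacyl-tRNA synthetases 7 were higher at Luc 24 h than in sham, of 8 amino acid transporters 5, of 10 serine, glycine and one-carbon genes 5 with 1 lower, and of 7 partners of ATF4 6, with none lower among the transporters, synthetases and partners. Under either rescaling 5 synthetases, 5 transporters and 5 partners were higher and none lower, while the serine, glycine and one-carbon genes had 4 higher with median-ratio and 3 with equal-total scaling. Slc7a5 (log2 change 2.14), Mthfd2 (1.61) and Mthfd1l (1.503) were higher there too. Of 11 other tested ATF4 targets 6 were higher and 1 lower at Luc 24 h, but 3 higher and 3 lower under either rescaling. Of the 8 kinases and partners of eIF2 3 were higher and none lower, with a median of -0.01. With equal-total scaling 2 of these were higher and 1 lower. In the ATF6 and XBP1 branch 4 of 18 were higher at Luc 24 h with a median of 0.04, under the median of all genes (0.16). With median-ratio scaling of the libraries 1 was higher and 3 were lower, and with equal-total scaling 1 and 4, so no direction is given for this branch. Atf3 was at 7.55 to 9.61 CPM in sham, 274 to 302 CPM at Luc 4 h and 37.6 to 54.3 CPM at Luc 24 h. Between these times it fell by 2.62 ± 0.41 on the log2 scale (adjusted p = 7.3e-05). In the uninjected table, which was normalized separately, Atf3 was at 139 CPM or more at 24 h, and no test was made between the tables.

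The AC hearts followed the same times with the other modRNA. From AC 4 h to AC 24 h 5 of 10 members rose, Atf4 (0.78 ± 0.22), Ddit3 (0.77 ± 0.23), Trib3 (1.21 ± 0.33), Asns (1.32 ± 0.25) and Sesn2 (0.93 ± 0.27), against 14.9% of all genes. Asns alone passed without AC 24 h heart D, the heart with the highest Sesn2, Trib3 and Asns of its group. The Atf4 call was also lost without AC 24 h heart A (0.65), and the Ddit3 call without AC 24 h heart C (0.67) or AC 4 h heart 2 (0.58). Median-ratio scaling lost the Atf4 and Ddit3 calls as well (0.64 each). When only the compared groups were fitted, the Ddit3 and Sesn2 calls were lost. From AC 24 h to AC 48 h Gdf15 rose (0.78 ± 0.27, adjusted p = 0.021), and Atf4 (-0.81 ± 0.22), Ppp1r15a (-1.75 ± 0.39) and Ddit4 (-1.69 ± 0.35) fell, against 19.0% of all genes higher and 25.5% lower. The Gdf15 call was lost without AC 24 h heart A (0.48) or AC 48 h hearts 2 (0.67) or 5 (0.72), and the Atf4 call under equal-total scaling (-0.35). Ppp1r15a went from 177, 87.4 and 137 CPM to 35.0, 41.7, 32.2 and 42.3 CPM, and Ddit4 from 43.3, 47.2 and 90.8 CPM to 14.8, 13.8, 18.01 and 22.3 CPM. In both, each 48 h library was below each 24 h library.

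AC and Luc hearts were compared at each time, since both carry an infarct and an injection and share a library set. At 4 h and at 24 h none of the 10 members passed by limma. None had an unadjusted p under 0.05 either, against 131 and 599 of the 12555 tested genes. Over all genes 0.00796% passed at 4 h and 0.00796% at 24 h, which is Asah1 alone. The widest log2 difference of a member was -0.33 for Sesn2 at 4 h (interval -0.85 to 0.18) and -0.43 for Ddit4 at 24 h (interval -1.21 to 0.35), and for Atf4 the intervals were -0.47 to 0.38 at 4 h and -0.47 to 0.51 at 24 h. A miss of the threshold does not show that the hearts were alike.

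At 48 h Asns was higher in AC than in Luc hearts, at 9.96, 14.5, 8.38 and 12.5 CPM against 5.91, 5.99, 7.20 and 4.67 CPM (log2 difference 0.82 ± 0.23, adjusted p = 0.019), where 12.1% of all genes were higher. Ddit4 was lower, at 14.8, 13.8, 18.01 and 22.3 CPM against 104, 29.4, 78.5 and 32.3 CPM (log2 difference -1.59 ± 0.33, adjusted p = 0.0026), where 3.27% of all genes were lower. In neither gene did the groups overlap. Without Luc 48 h hearts 1 and 3 no member passed, with log2 differences of 0.94 for Asns (adjusted p = 0.080) and -0.83 for Ddit4 (adjusted p = 0.15). The Asns call was also lost without AC 48 h heart 2 (0.70) or heart 5 (0.76) and with median-ratio scaling (0.68, adjusted p = 0.059). Ppp1r15a (-0.95 ± 0.36, adjusted p = 0.078) and Atf5 (0.47 ± 0.18, adjusted p = 0.084) did not pass.

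**Figure D5:**
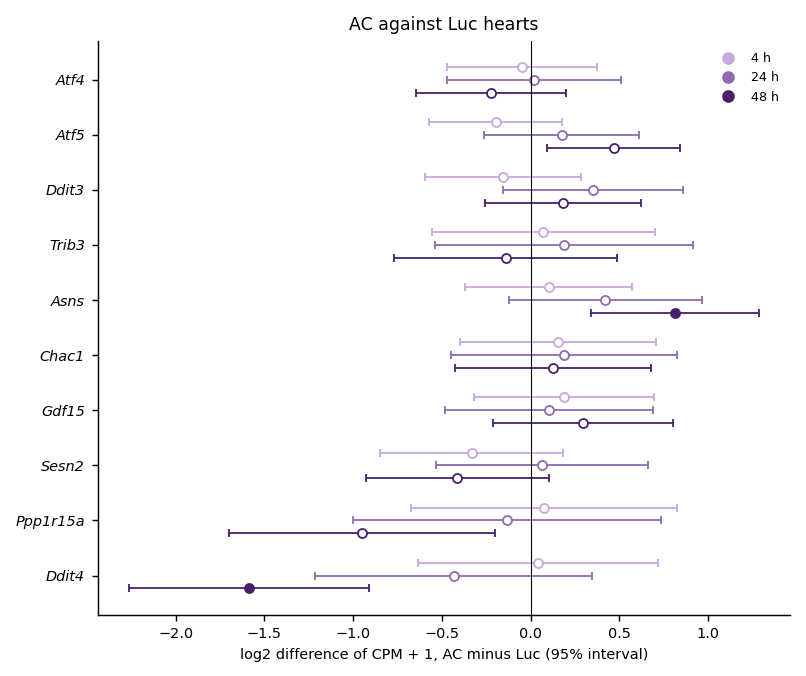
Log2 difference of AC and Luc hearts (AC minus Luc) for each gene at 4, 24 and 48 h, with 95% intervals, and filled points where the adjusted p was under 0.05. Only Asns (0.82) and Ddit4 (-1.59) at 48 h are filled.

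Whether the difference between AC and Luc hearts changed over time was tested by interaction terms, and no member passed by limma. Over all genes 0.00796% passed for 24 h against 4 h (Asah1), 3.35% for 48 h against 4 h and 2.56% for 48 h against 24 h. In the same order, 0, 3 and 1 members had an unadjusted p under 0.05, against 379, 2349 and 2134 of the 12555 tested genes. Ddit4 came closest, with -1.63 ± 0.46 for 48 h against 4 h (adjusted p = 0.052). At 48 h, of 10 genes of the serine, glycine and one-carbon list 5 were higher in AC hearts and none lower, and 3 without Luc hearts 1 and 3. The highest were Pycr1 (1.29) and Aldh18a1 (1.10), both of proline synthesis, and the folate enzyme Mthfd2 (1.18). Of 18 genes of the ATF6 and XBP1 branch 5 were higher and none lower (median 0.37), 3 higher and 1 lower with median-ratio scaling, and 1 higher without Luc hearts 1 and 3. None of 8 transporters passed, and none of 13 aminoacyl-tRNA synthetases did either, of which 4 were higher with equal-total scaling. Of 7 partners of ATF4 none passed (median -0.40, against 0.14 for all genes), and 1 was higher with equal-total scaling. Of 11 other tested ATF4 targets none was higher and 2 were lower. Of these 11, 3 were lower with median-ratio scaling and 1 was higher and 1 lower with equal-total scaling. None passed without Luc hearts 1 and 3. All 6 glucocorticoid targets, among them Fkbp5 (-1.54), Per1 (-1.66) and Tsc22d3 (-0.93), were lower in AC hearts, as was Ddit4, and none of the 6 passed without Luc hearts 1 and 3, where the median was -0.71. Of 10 HIF targets 1 was higher and 2 were lower (median -0.39), and 4 were lower with median-ratio scaling. Of 11 p53 targets 2 were higher and 2 lower, or 1 higher and 3 lower with median-ratio scaling. In neither list did a gene pass without Luc hearts 1 and 3. Monocyte and macrophage markers summed to 347 to 519 CPM in AC and 134 to 209 CPM in Luc hearts at 48 h, fibroblast markers to 948 to 1368 CPM and 658 to 866 CPM, and the cardiomyocyte markers to 21456 to 26636 CPM and 27447 to 36063 CPM, with no overlap in any of the 3. The part of these marker sums in the differences was not tested.

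The split of calls in the second table depended on how libraries were scaled, and member calls have to be read beside this. Of the genes called between Luc 24 h and sham, 74.2% were higher, and 52.9% with median-ratio scaling. The share was 75.9% and 52.4% for Luc 24 h against Luc 4 h, 79.7% and 52.5% for AC 24 h against AC 4 h, and 78.7% and 50.6% for AC against Luc at 48 h. Of the genes called between Luc 48 h and Luc 24 h, 22.3% were higher, and 49.0% with median-ratio and 77.5% with equal-total scaling, for which the Atf4 difference was -0.32 and -0.09 and did not pass. Equal-total scaling also moved the higher share between AC 48 h and AC 24 h from 42.6% to 81.9%, between Luc 24 h and sham to 42.5%, between Luc 24 h and Luc 4 h to 48.2%, between Luc 48 h and sham from 45.4% to 66.1%, between Luc 4 h and sham from 80.9% to 70.2% and between MI 4 h and sham from 65.5% to 48.8%. For the interaction terms at 48 h the share went from 86.0% to 58.8% (against 4 h) and from 87.0% to 56.1% (against 24 h) with median-ratio scaling. No called member changed direction under either scaling.

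The genes whose course over the 24 libraries of the second table was most like that of Atf4, by Pearson's r of log2(CPM + 1) among 12555 genes, were Rassf1 (0.929), Zfand2a (0.921) and Pgf (0.914). For Gdf15 they were Lmna (0.920), Tubb6 (0.920) and Mmp9 (0.884). These are descriptions over libraries that share groups, times and library sets.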

How the data were processed

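Poly(A) RNA of mouse LV was sequenced. For the first table the authors aligned single reads of 50 bp to mm10 with STAR, counted RefSeq genes with Partek's expectation-maximization method and scaled them by TMM, so the deposited values are CPM; the study's methods do not describe the second table, whose labels name mm10, and whose deposited CPM had 1 added, which was subtracted here. Tables were tested separately with limma 3.58.1 in R 4.3.3 on log2(CPM + 1), keeping genes whose average reached 1 CPM (12487 and 12555), all groups of a table in 1 model without covariates, an empirical Bayes trend and Benjamini-Hochberg adjustment over all genes (threshold 0.05). Fits were checked on simulated data. Among low values of the first table (below 1 CPM), 84.2% were whole-number steps of the smallest one (tolerance 0.05), so a count test was not run. Intervals are 95% limits of the fit. Groups came from the labels, which name a stranded kit. The members, the pathway and marker lists and the tests were chosen with earlier results of these data known. Named were all members, Atf3, from each list at most 4 genes called at MI 24 h (the 2 highest and 2 lowest), and the 3 genes most like Atf4 and Gdf15; other named genes were chosen after their values were seen. Alternatives were another pseudocount (0.1), other filters (none, 10 CPM), scalings, weights, a replicate block, fits of the compared groups alone and leaving out each library. Coordinates are 1-based, from the deposited tables (mm10); sequences are from RefSeq (GRCm38.p6). Python 3.11 was used for the rest.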

Additional observations from a re-analysis of the deposited data

Results flagged for a closer look

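In 4 of 50 checks of a member in a group of 4 libraries, 1 library lay far from the others by Dixon's test, where chance gives about 1 in 20. Ddit3 was at 52.9 CPM in MI 24 h heart C, with the other 24 h hearts at 34.2 to 35.4 CPM. Asns was at 27.9 CPM in the same heart, with the others at 14.7 to 16.7 CPM. Gdf15 was at 27.8 CPM in MI 24 h heart D, with the others at 14.1 to 15.1 CPM. Atf5 was at 19.2 CPM in AC 4 h heart 2, with the others at 32.6 to 35.3 CPM. The calls of Ddit3, Asns and Gdf15 at MI 24 h were kept without each of these hearts.

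The change against sham differed between times by a test of the difference itself (limma, adjusted p under 0.05). In uninjected hearts the change at 24 h exceeded that at 4 h by 2.12 on the log2 scale for Atf4, 0.74 for Atf5, 1.59 for Ddit3, 2.75 for Trib3, 2.57 for Asns, 1.23 for Chac1, 2.55 for Gdf15, 1.99 for Sesn2 and 1.57 for Ppp1r15a. In Luc hearts the change at 24 h exceeded that at 4 h by 0.71 for Atf4, 1.09 for Trib3, 1.005 for Asns and 1.28 for Ddit4. The change of Atf4 at 48 h against that at 24 h in Luc hearts was -0.57. The 2 times of each difference share the sham hearts, which cancel.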

How the results depend on the processing

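Of 47 member results past the threshold, 1266 values under alternatives kept their direction, and 1201 of them kept the call. The counts of members called moved by over 1.5 times as follows, with the cause not tested except where named. At a mean of at least 10 CPM, where fewer members were fitted, the counts were 5 (MI 24 h against sham), 4 (MI 24 h against 4 h), 3 (Luc 24 h against sham), 2 each (Luc 48 h against sham, Luc 24 h against 4 h, AC 24 h against 4 h) and 1 (AC against Luc 48 h). With array weights they were 4 (MI 4 h against sham), 1 (Luc 48 h against sham), 3 (Luc 48 h against 24 h) and 5 (AC against Luc 48 h). Fitting only the groups compared gave 3 (Luc 4 h against sham), 3 (Luc 48 h against sham), 0 (Luc 48 h against 24 h) and 3 (AC 24 h against 4 h). Median-ratio scaling gave 3 (AC 24 h against 4 h), 1 (AC against Luc 48 h) and 1 (interaction, 48 h against 4 h), and equal-total scaling 3 (Luc 48 h against 24 h). The pseudocount of 0.1 gave 1 (Luc 4 h against sham), and no filter and values as deposited gave 0 (Luc 48 h against 24 h). Without Luc 48 h hearts 1 and 3, fewer samples, they were 2 (Luc 4 h against sham), 2 (Luc 48 h against sham), 3 (Luc 48 h against 24 h) and 0 (AC against Luc 48 h). Leaving out each library gave 1 to 2 (MI 4 h against sham), 0 to 2 (Luc 4 h against sham), 3 to 6 (Luc 24 h and Luc 48 h against sham), 2 to 5 (Luc 24 h against 4 h), 0 to 3 (Luc 48 h against 24 h), 1 to 5 (AC 24 h against 4 h), 1 to 3 (AC against Luc 48 h) and 0 to 1 (interaction, 48 h against 4 h). Shared letters and numbers were not used to pair the libraries in the main fits. Same-numbered deviations correlated at -0.26 to 0.34, and the few pairs cannot tell whether such hearts share a day or preparation. With a replicate block 9 members were called at MI 24 h against sham (all but Atf5, log2 change 0.57), 10 at MI 24 h against 4 h and 1 at AC against Luc 48 h (Ddit4, with Asns at 0.84 and adjusted p = 0.065). The depth of the second table is unknown, so the precision of Gdf15 in its sham hearts, under 1 CPM, is not known.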
